A study of Mus musculus with 6 samples.

Results

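Messenger RNA levels were followed for 34 genes that carry pyruvate into mitochondria, turn it into acetyl-CoA and run the citric acid cycle in the adult mouse heart. The genes were chosen by function and found through the RefSeq accessions of 46 array probes, among 20145 named genes with a probe on the array. They comprise 17 core enzymes, namely 5 subunits of the pyruvate dehydrogenase complex and 12 mitochondrial cycle enzymes, and 17 genes around them. The genes around them are 2 pyruvate carrier subunits, 4 kinases and 3 phosphatase subunits that act on the complex, pyruvate carboxylase, 2 cytosolic enzymes, 3 enzymes of the malate-aspartate shuttle and 2 malic enzymes.

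The study compared heart ventricles of Tead1 icKO and control mice, 3 male C57bl/6j mice of 11 to 12 weeks in each group, with 1 single-colour Agilent array per mouse. The icKO mice were Tead1F/F with Myh6-CreER, a Cre recombinase that is active in cardiomyocytes once tamoxifen is given, and they received tamoxifen. The control mice were Tead1 flox mice and also received tamoxifen. No Cre is named for the controls, so loss of Tead1 and the presence of Cre cannot be told apart.

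Pyruvate made in the cytosol enters mitochondria through a carrier and is oxidised by the pyruvate dehydrogenase complex, which kinases switch off and phosphatases switch on. The acetyl-CoA it makes enters the citric acid cycle, which feeds electrons to the respiratory chain. The beating heart draws most of its energy from this oxidation, mainly with fatty acids as fuel, and the malate-aspartate shuttle brings reducing power from the cytosol into the same mitochondria.

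Each level is the log2 processed signal of a gene's brightest kept probe, less the 75th percentile of its array, so a level of 0 is a probe at that percentile. Levels of different probes are not compared, since probes bind with different strength. Every difference is icKO minus control on this log2 scale, and every adjusted p comes from limma with Benjamini-Hochberg adjustment over all 22275 features tested, at a threshold of 0.05. A gene "rose" or "fell" only where it passed that threshold. With 3 arrays per group, the number of arrays limits the precision of every value. In whole ventricle, fewer cells of a type and less RNA per cell cannot be told apart.

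All 6 arrays lay on 1 slide, the icKO arrays in its columns 2, 3 and 3 and the controls in columns 1, 1 and 2. Slide column and group can therefore hardly be told apart. Between 47.7% and 50.8% of probes were well above background and 0 spots were saturated. Before scaling, the icKO arrays were all brighter, with a 75th percentile signal of 292 to 348, against 189 to 233 in control. The mean log2 signal of the spike-in probes was 6.03 to 6.17 in icKO, against 5.86 to 5.93 in control. Array brightness and group can therefore not be told apart. Correlations between arrays were 0.987 to 0.992 within icKO, 0.989 to 0.992 within control and 0.947 to 0.958 between the groups. Tead1 itself was at 75.9% of control in icKO (log2 difference -0.40, adjusted p = 0.030), but where its probe lies relative to the deleted part is not known here, so it does not check the labels. Of all features, 44.8% were called, 28.7% lower and 16% higher in icKO, and the groups did not overlap for 59%.

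Of the 34 genes, 31 fell in icKO ventricles, 2 rose and 1 was not called, against 28.7% of all features called lower and 16% called higher; of the 31, Mpc1 and Me1 change sign with a spike-in scaling. The groups did not overlap for 33 of the 34, against 59% of all features. The median difference was -0.92 over the 34 genes, while the median over all features was -0.14. All 17 core enzymes fell, with a median of -0.97 and a range from -1.42 for Dlat to -0.53 for Pdhb. Of the 17 genes around them, 14 fell and 2, the kinases Pdk1 and Pdk3, rose. All 34 genes kept 1 direction within both rows of the slide. All but Pdpr (0.26) kept it in column 2, the only column shared by the groups, where Pdk4 differed by -0.08. All 34 probes used were well above background on every array, apart from that of Pdpr, which passed on 3 icKO arrays and 2 control arrays.

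**Figure D1:**
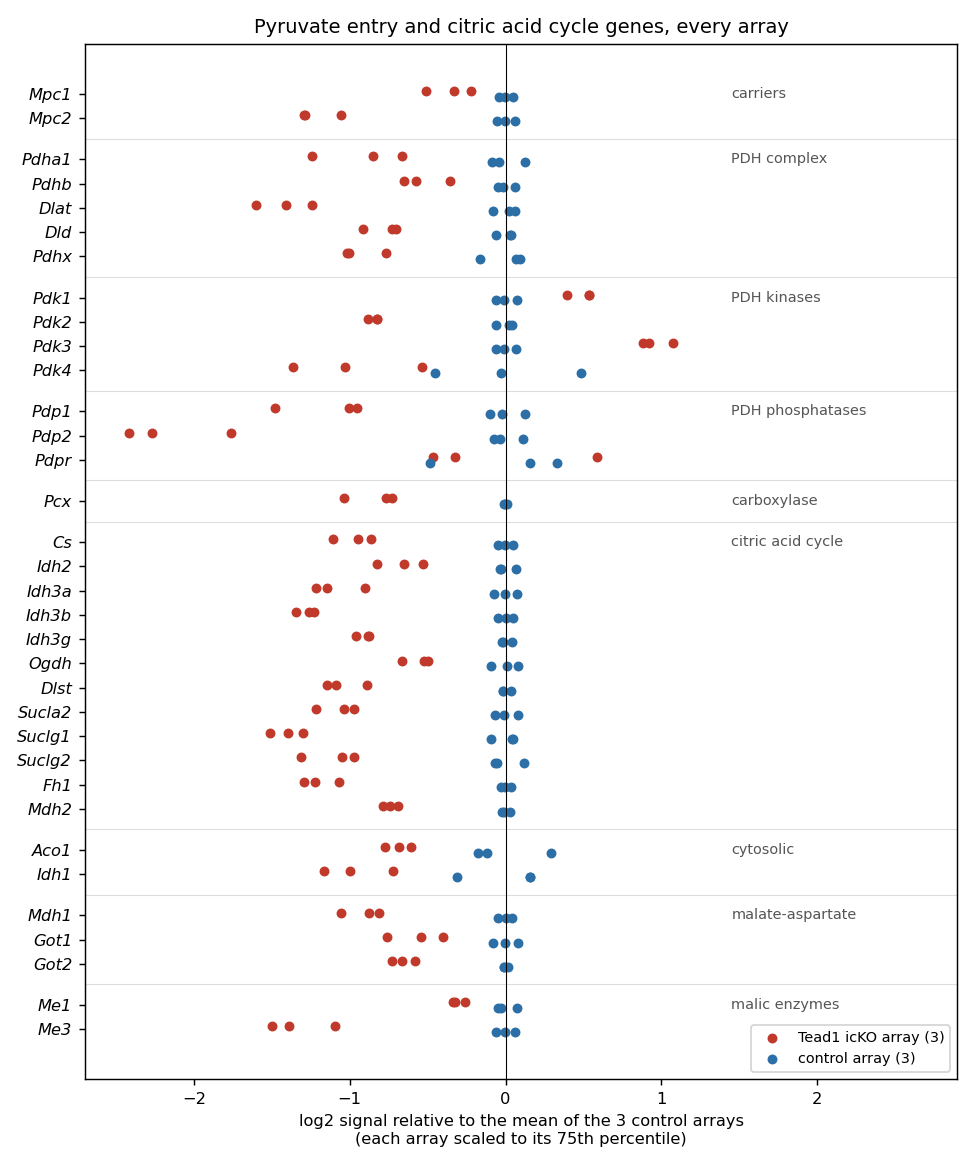
Log2 signal of each of the 34 genes on every array, set to the mean of its 3 control arrays; each point is 1 array, icKO above control in each row. The icKO points lie left of all controls for 31 genes and right of them for Pdk1 and Pdk3, while Pdpr overlaps; with arrays scaled to spike-in probes the small falls of Mpc1 and Me1 were not called and Me1 turned to 0.04.

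The mitochondrial pyruvate carrier is built from Mpc1 and Mpc2, and its subunits fell by unequal amounts. Mpc2 stood at 5.62, 5.63 and 5.85 on the icKO arrays, against 6.97, 6.86 and 6.91 on the control arrays. Every icKO array was more than 1 log2 unit below every control. The difference was -1.21 ± 0.11 (SE, n = 3 and 3), or 43.1% of control (adjusted p = 0.00054). Mpc1 stood at 7.41, 7.23 and 7.52 in icKO and at 7.78, 7.73 and 7.70 in control, a difference of -0.35 ± 0.11 (adjusted p = 0.0366). Its groups did not overlap, yet the call was lost without icKO replicate 1 or 2 or without any 1 control (adjusted p from 0.0632 to 0.0968), and its sign turned with scaling to the bright spike-in probes (0.09, adjusted p = 0.704). The Mpc1 call was also lost with normexp background correction (-0.14, adjusted p = 0.318). The difference was near 0 with quantiles (-0.03), the authors' value table (-0.03) and all spike-in probes (-0.003).

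All 5 subunits of the pyruvate dehydrogenase complex fell. Dlat, the acetyltransferase core that carries lipoate, fell most. Its levels were 3.24, 3.60 and 3.43 in icKO ventricles, against 4.86, 4.76 and 4.90 in control ventricles. That is 37.5% of control (-1.42 ± 0.12, adjusted p = 0.000515), and the lowest control lay far above the highest icKO array. Pdhx, which ties the dihydrolipoamide dehydrogenase to the core, fell by 0.93 (adjusted p = 0.00208). Dld, that dehydrogenase, which the 2-oxoglutarate dehydrogenase complex also uses, fell by 0.78 (adjusted p = 0.00188).

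The decarboxylase itself has an alpha and a beta subunit. Pdha1, the alpha subunit whose serines the kinases phosphorylate, was at 4.27, 3.70 and 4.08 in icKO and at 4.90, 5.07 and 4.85 in control. This was 52.8% of control (-0.92 ± 0.17, adjusted p = 0.00617), with icKO replicate 2 the lowest array. Pdhb, the beta subunit, had the smallest fall of the core enzymes. It stood at 7.04, 6.96 and 7.25 in icKO, against 7.67, 7.56 and 7.60 in control, or 69.4% of control (-0.53 ± 0.11, adjusted p = 0.0105). The call for Pdhb was lost with every other scaling, from -0.37 with the median (adjusted p = 0.0642) to -0.09 with the bright spike-in probes (adjusted p = 0.695), as well as with the authors' value table (-0.27) and with dim probes kept (adjusted p = 0.0554).

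The 12 mitochondrial cycle enzymes all fell, with a median difference of -1.06 and a range from -1.40 to -0.56. Cs, citrate synthase, which joins acetyl-CoA to oxaloacetate, was at 8.37, 8.12 and 8.29 in icKO and at 9.18, 9.23 and 9.28 in control. That is 51% of control (-0.97 ± 0.10, adjusted p = 0.000977). All 3 icKO arrays lay below all 3 controls by a margin far wider than the spread within either group.

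The NAD-dependent isocitrate dehydrogenase, which makes 2-oxoglutarate, has 3 kinds of subunit and all fell. Idh3b stood at 6.65, 6.54 and 6.62 in icKO ventricles, against 7.89, 7.93 and 7.84 in control ventricles. It was at 41.2% of control (-1.28 ± 0.09) and had the smallest adjusted p of the 34 genes, 0.0003. Idh3a, the catalytic alpha subunit, fell by 1.09 (adjusted p = 0.00103), and Idh3g by 0.91 (adjusted p = 0.000728). Idh2, the mitochondrial enzyme that works with NADP instead, fell less, at 8.81, 8.52 and 8.69 in icKO and at 9.41, 9.31 and 9.31 in control (-0.67 ± 0.11, adjusted p = 0.00438).

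Of the 2-oxoglutarate dehydrogenase complex, the succinyltransferase Dlst fell by 1.04 (adjusted p = 0.000809). Ogdh, the decarboxylase, fell by 0.56 (adjusted p = 0.0059). The brightest Ogdh probe was at 7.97, 8.13 and 8.11 in icKO, against 8.64, 8.54 and 8.71 in control. Another bright probe of Ogdh gave a difference of -0.53, and the dimmest one gave -1.23, so its probes shared a direction but not a size.

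Succinyl-CoA ligase, which makes ATP or GTP within the cycle, pairs a shared alpha subunit with 1 of 2 beta subunits. Suclg1, the alpha subunit, stood at 5.52, 5.40 and 5.62 in icKO ventricles, against 6.96, 6.96 and 6.82 in control ventricles. It was at 37.8% of control (-1.40 ± 0.10, adjusted p = 0.000335), close to the fall of Dlat. Sucla2, the ADP-forming beta subunit, fell by 1.07 (adjusted p = 0.000799), and Suclg2, the GDP-forming one, by 1.11 (adjusted p = 0.00122). The falls of the beta subunits differed by less than their standard errors of 0.11 and 0.12.

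Fumarase and malate dehydrogenase close the cycle. Fh1 was at 5.71, 5.64 and 5.86 in icKO and at 6.91, 6.97 and 6.93 in control, or 43.6% of control (-1.20 ± 0.10, adjusted p = 0.00046). Mdh2, mitochondrial malate dehydrogenase, was at 9.25, 9.15 and 9.20 in icKO and at 9.93, 9.92 and 9.97 in control. Its SDs of 0.05 in icKO and 0.03 in control were the smallest of the 12 enzymes, and it was at 60% of control (-0.74 ± 0.09, adjusted p = 0.00135).

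The kinases and phosphatases of the complex did not share 1 direction. Of the 4 kinases, which phosphorylate Pdha1 and so lower the activity of the complex, 2 rose and 2 fell. Pdk3 stood at -1.0, -1.16 and -1.19 in icKO ventricles, against -2.08, -2.01 and -2.14 in control ventricles. This was a 1.95-fold rise (0.96 ± 0.10, adjusted p = 0.000888). Pdk1, known in other settings as a target of hypoxia signalling, was at 2.07, 1.93 and 2.07 in icKO and at 1.60, 1.52 and 1.47 in control, a 1.4-fold rise (0.49 ± 0.09, adjusted p = 0.00796). For both genes every icKO array lay above every control array, and the rise was called under all alternatives run.

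Pdk2 and Pdk4 fell. Pdk2 stood at 4.97, 4.91 and 4.97 in icKO ventricles, against 5.73, 5.81 and 5.83 in control ventricles, or 55.7% of control (-0.84 ± 0.09, adjusted p = 0.000919). Pdk4, a kinase induced by fasting and by fatty acids, varied more between mice of a group than any other of the 4. Its levels were 6.29, 5.79 and 5.46 in icKO and 6.79, 7.31 and 6.37 in control, so the highest icKO array lay just under the lowest control. The difference was -0.98 ± 0.30 (adjusted p = 0.0378). It was lost without icKO replicate 2 or 3 or control replicate 1 or 2 (adjusted p from 0.087 to 0.104), and the pair of arrays that shared slide column 2 differed by only -0.08. The call was also lost with every other scaling (adjusted p from 0.0503 with the median to 0.237 with the bright spike-in probes), with the authors' value table (0.0721) and with dim probes kept (0.115).

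The phosphatases reverse the kinases' mark. Pdp2, the catalytic subunit known in other tissues for its response to insulin, had the largest fall of the 34 genes. It was at 0.27, 0.92 and 0.41 in icKO ventricles, against 2.64, 2.79 and 2.61 in control ventricles. That is 22.5% of control (-2.15 ± 0.18, 95% interval from -2.59 to -1.71, adjusted p = 0.00051), and 1.07% of all features had a lower difference. Another Pdp2 probe, not well above background on any icKO array, gave -1.94. Pdp1, the calcium-stimulated catalytic subunit, was at 0.85, 1.38 and 1.33 in icKO and at 2.23, 2.31 and 2.45 in control, or 45.2% of control (-1.15 ± 0.16, adjusted p = 0.00274). Its other probes gave -0.93 and -0.99. Pdpr, the regulatory subunit, stood at -2.16, -3.21 and -3.08 in icKO, against -3.24, -2.59 and -2.42 in control. Its groups overlapped, and the difference of -0.07 ± 0.34 had a 95% interval from -0.88 to 0.74 (adjusted p = 0.886).

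Set against the mean of the 17 core enzymes on the same array, the regulators can be followed without any scaling between arrays. That mean was 5.81, 5.71 and 5.88 on the icKO arrays, against 6.77, 6.76 and 6.78 on the control arrays, a difference of -0.98. Relative to it, Pdk3 was higher in icKO by 1.94 and Pdk1 by 1.47. Pdp2 differed by -1.17 (log2 ratio -5.54, -4.79 and -5.46 in icKO, against -4.13, -3.98 and -4.18 in control). None of these 3 overlapped between groups. The median difference of all features was -0.14, so a feature at that median would also be higher in icKO by this ratio. The share of all features without overlap by this ratio is not given here, so the lack of overlap does not set these genes apart.

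Pdk2 was higher by 0.13 relative to the enzymes, with no overlap, and Pdpr by 0.91, also with no overlap. Neither transcript rose: Pdk2 fell (-0.84) and Pdpr was not called (-0.07), while the enzyme mean differed by -0.98. Pdk4 differed by 0.00 and Pdp1 by -0.17, and both overlapped between the groups. The mean of the 7 regulators relative to the enzymes was -4.19, -4.20 and -4.45 in icKO and -4.82, -4.60 and -4.76 in control. Its difference of 0.44 was smaller in the authors' value table, at 0.28. A feature at the median difference of all features (-0.14) would also be higher by such a ratio. These ratios are given as descriptions, with no test.

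**Figure D2:**
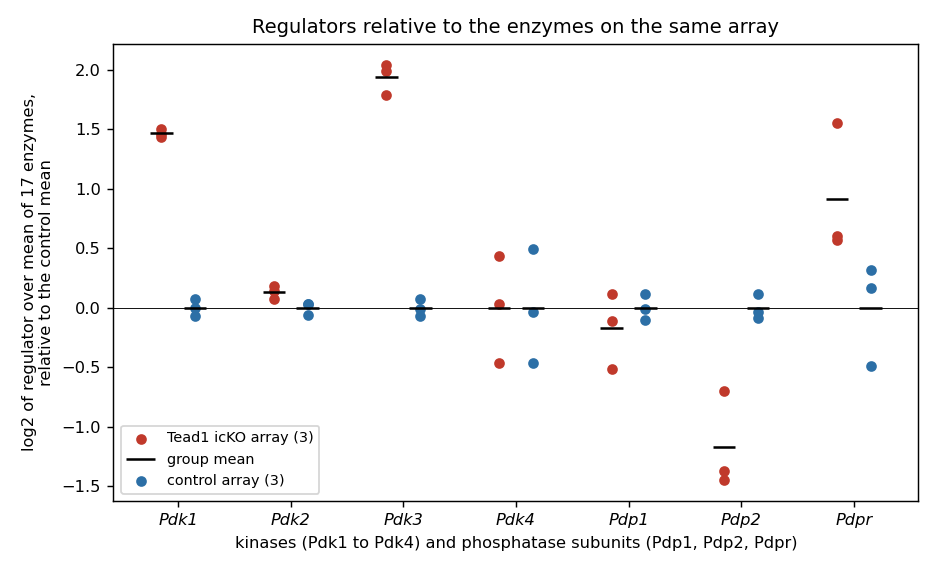
Log2 signal of each kinase and phosphatase subunit minus the mean of the 17 core enzymes on the same array, set to the control mean; each point is 1 array, icKO left of control, and the bar is the group mean. Pdk1 and Pdk3 lie 1.47 and 1.94 above their controls, Pdp2 differs by -1.17, and Pdk4 and Pdp1 overlap with theirs. The enzyme mean itself differed by -0.98 between the groups.

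The promoters of the 6 regulators with an entry are shown because these genes moved unequally and because TEAD factors are known to bind the element CATTCC. Pdp1 had no entry. Each run is the 250 bases before the annotated start, 5′ to 3′ on the gene's strand, from RefSeq on build GRCm38.p6. Capitals mark a match to CATTCC, or to its reverse complement GGAATG.
Pdp2: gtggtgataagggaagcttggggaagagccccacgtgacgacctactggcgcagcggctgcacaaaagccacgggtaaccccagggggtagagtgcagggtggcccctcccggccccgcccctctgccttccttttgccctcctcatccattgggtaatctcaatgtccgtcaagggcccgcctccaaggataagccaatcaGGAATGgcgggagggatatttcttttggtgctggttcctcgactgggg
Pdk2: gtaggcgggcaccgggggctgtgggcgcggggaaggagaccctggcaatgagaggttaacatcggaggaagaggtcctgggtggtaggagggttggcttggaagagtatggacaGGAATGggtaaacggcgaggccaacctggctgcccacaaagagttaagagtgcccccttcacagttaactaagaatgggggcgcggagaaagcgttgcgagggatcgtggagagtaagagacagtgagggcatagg
Pdk3: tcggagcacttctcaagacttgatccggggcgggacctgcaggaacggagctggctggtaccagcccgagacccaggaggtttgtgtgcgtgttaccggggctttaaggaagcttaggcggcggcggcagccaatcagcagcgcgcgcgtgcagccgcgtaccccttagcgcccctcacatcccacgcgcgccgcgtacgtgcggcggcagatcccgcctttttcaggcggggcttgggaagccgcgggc
Pdk1: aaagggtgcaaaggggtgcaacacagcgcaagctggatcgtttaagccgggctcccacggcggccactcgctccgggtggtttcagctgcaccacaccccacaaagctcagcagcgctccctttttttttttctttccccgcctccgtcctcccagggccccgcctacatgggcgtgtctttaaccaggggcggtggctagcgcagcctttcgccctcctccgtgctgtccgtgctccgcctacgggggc
Pdk4: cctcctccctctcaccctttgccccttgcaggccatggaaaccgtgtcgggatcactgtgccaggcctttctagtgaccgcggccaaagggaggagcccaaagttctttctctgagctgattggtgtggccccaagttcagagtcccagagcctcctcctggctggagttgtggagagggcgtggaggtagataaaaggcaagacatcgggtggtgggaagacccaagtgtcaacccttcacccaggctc
Pdpr: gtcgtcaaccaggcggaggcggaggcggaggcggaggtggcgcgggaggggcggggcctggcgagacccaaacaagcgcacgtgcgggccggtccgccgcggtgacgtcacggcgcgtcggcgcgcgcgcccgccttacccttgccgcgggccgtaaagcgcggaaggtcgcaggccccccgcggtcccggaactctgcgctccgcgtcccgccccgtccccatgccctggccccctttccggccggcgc

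The Pdp2 run lies at chr8:104591222-104591471 on the plus strand, and its match begins 48 bases before the start. The Pdk2 run lies at chr11:95040876-95041125 on the minus strand, with a match that begins 136 bases before the start. The other annotated promoters of Pdk2 and Pdk1 had no match. The runs of Pdk3, at chrX:93832151-93832400 on the minus strand, and of Pdk1, at chr2:71872974-71873223 on the plus strand, had none either. Nor did those of Pdk4, which also fell, at chr6:5496279-5496528 on the minus strand, and of Pdpr, at chr8:111094495-111094744 on the plus strand. Of the 34 genes, 32 had an entry, with 43 promoters among them. A match was found in 4 of the 43 (9.3%), against 12.6% of all 32851 promoters in the table, searched on both strands.

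The other 2 matching promoters belong to Mpc1 and Me1, whose falls were the smallest of the 31. The extended element TNAAGGTCA of the oestrogen-related receptors, which are known to drive cycle genes in heart, was found on either strand in 0 of the 43, against 1.14% of all promoters. Neither element contains the other. A match describes the letters of these windows and no more.

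Around the cycle, Pcx, pyruvate carboxylase, which refills oxaloacetate, stood at 1.87, 2.14 and 2.18 in icKO ventricles, against 2.92, 2.91 and 2.9 in control ventricles. It was at 55.7% of control (-0.84 ± 0.11, adjusted p = 0.00209), and its icKO spread was far wider than the control SD of 0.01. Of the cytosolic enzymes, Idh1, which makes NADPH, was at -1.51, -1.07 and -1.35 in icKO and at -0.19, -0.66 and -0.19 in control (-0.96 ± 0.18, adjusted p = 0.00696). Aco1, the cytosolic aconitase that also acts as an iron sensor, was a dim probe with a difference of -0.69 ± 0.15 (adjusted p = 0.0116), a call lost with the spike-in probes (-0.33, adjusted p = 0.158) and with dim probes kept (0.0521). Neither gene overlapped between the groups.

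The malate-aspartate shuttle uses a malate dehydrogenase and an aspartate aminotransferase on each side of the inner membrane. The cytosolic dehydrogenase Mdh1 fell to 6.89, 6.71 and 6.95 in icKO, against 7.81, 7.72 and 7.77 in control (-0.91 ± 0.10, 53% of control, adjusted p = 0.00118). The aminotransferases fell less. Got1, the cytosolic one, stood at 7.31, 7.10 and 7.45 in icKO ventricles, against 7.78, 7.85 and 7.94 in control ventricles (-0.57 ± 0.12, adjusted p = 0.0113). Got2, the mitochondrial one, was at 6.36, 6.29 and 6.44 in icKO and at 7.02, 7.04 and 7.01 in control (-0.66 ± 0.09, adjusted p = 0.00225). Relative to the mean of the core enzymes on the same array, Got1 was higher in icKO by 0.41 and Got2 by 0.32 with no overlap, while Mdh1 was higher by 0.06 and overlapped. A higher ratio here is a smaller fall than that of the enzyme mean. The call for Got1 was lost with quantiles (-0.25, adjusted p = 0.186), the spike-in probes (-0.22, adjusted p = 0.258), the authors' value table (-0.25) and dim probes kept (0.0555), and that for Got2 with the spike-in probes (-0.31, adjusted p = 0.0772).

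The malic enzymes convert malate to pyruvate. Me3, a mitochondrial form, stood at 3.78, 4.19 and 3.89 in icKO ventricles, against 5.28, 5.34 and 5.22 in control ventricles, or 39.8% of control (-1.33 ± 0.13, adjusted p = 0.000773). Another probe of Me3 gave the same difference to 2 decimals. Me1, the cytosolic form, was at 4.49, 4.57 and 4.51 in icKO and at 4.79, 4.91 and 4.80 in control, the smallest fall of the 31 genes (-0.31 ± 0.09, adjusted p = 0.0314). Its other probes gave -0.66 and -0.40. The call for Me1 was lost without any 1 of the 6 arrays (adjusted p from 0.0553 to 0.0951), and its sign turned with spike-in scaling (0.04, adjusted p = 0.812). It was also lost with normexp background correction (-0.19, adjusted p = 0.101).

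Bright probes as a whole were lower in icKO, and many of the enzymes are bright. The 275 features with a mean level above 8 had a median difference of -0.53, and 70.9% of them were called lower. The 34 genes were therefore set against features within 0.5 log2 units of their own level. Of the 34, 31 lay below the median of such features, and all 17 core enzymes did, with a median difference from it of -0.86.

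The margin differed widely between enzymes. Dlat differed from the median of its 1294 like features by -1.31, and 1.93% of those had a lower difference. For Pdp2, 0.468% of like features had a lower one. The 3 brightest core enzymes beside Cs were near their like features, as Idh2 differed from theirs by only -0.09, Ogdh by -0.10 and Mdh2 by -0.10. Between 32.2% and 39.3% of features as bright as these 3 had a lower difference. Mpc1 differed from its like features by -0.06.

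**Figure D3:**
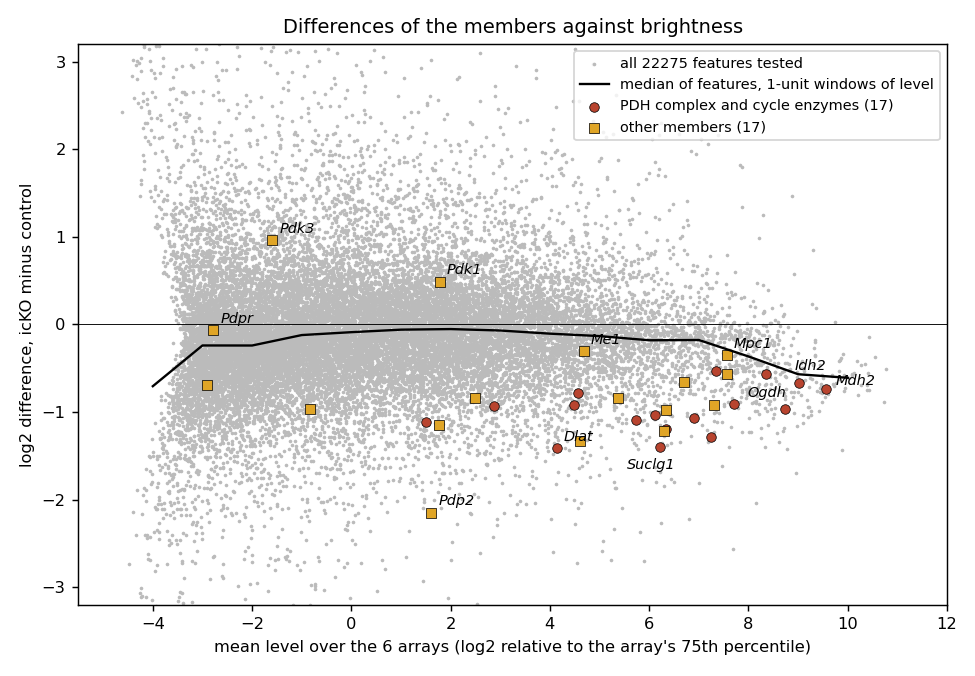
Log2 difference between icKO and control against mean level over the 6 arrays for all 22275 features (grey; 176 lie beyond the plotted range), with their median by level (line), the 17 core enzymes (circles) and the 17 other genes (squares). Most core enzymes lie well under the line, while Idh2, Ogdh, Mdh2 and Mpc1 lie close to it; Pdk1 and Pdk3 lie above 0.

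The size and number of the falls depended on how the arrays were brought to 1 scale. Relative to the 75th percentile, scaling to the median added 0.16 to the median difference of all features, quantile normalization added 0.07, the 10 spike-in probes added 0.35 and the 5 bright ones among them added 0.44. The number of the 34 genes called lower was 31 with the 75th percentile, 26 with the median, 23 with quantiles, 22 with the spike-in probes and 16 with the bright ones. In the same order, 28.7%, 16.4%, 23.8%, 10.5% and 7.54% of all features were called lower. The share of all calls that were higher in icKO was 35.8% with the 75th percentile, 54.6% with the median, 43.5% with quantiles, 74.1% with the spike-in probes and 81% with the bright ones.

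The median of the core enzymes differed from that of all features by -0.83 with the 75th percentile. The median and spike-in scalings shift every feature of an array alike and so keep that value by construction, and quantile normalization gave -0.81. Of the 17 core enzymes, 15 were called lower with the median, 13 with quantiles, 14 with the spike-in probes and 10 with the bright ones, and none turned its sign. The shares of all features called lower under each scaling are those given above. With the median, Pdhb and Ogdh were the core enzymes that lost the call, and Mpc1, Me1 and Pdk4 lost it too. With quantiles Pdhb (-0.28), Ogdh (-0.12), Idh2 (-0.14), Mdh2 (-0.17), Got1, Mpc1, Me1 and Pdk4 were not called, and with the spike-in probes Pdhb, Ogdh, Idh2, Aco1, Got1, Got2, Mpc1, Me1 and Pdk4 were not. The bright spike-in probes also took the calls of Pdha1, Dld, Idh3g, Mdh2, Pdk2 and Pcx. Pdk1 and Pdk3 rose under all 5. Mpc1, Me1 and Pdpr changed sign with at least 1 of them.

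**Figure D4:**
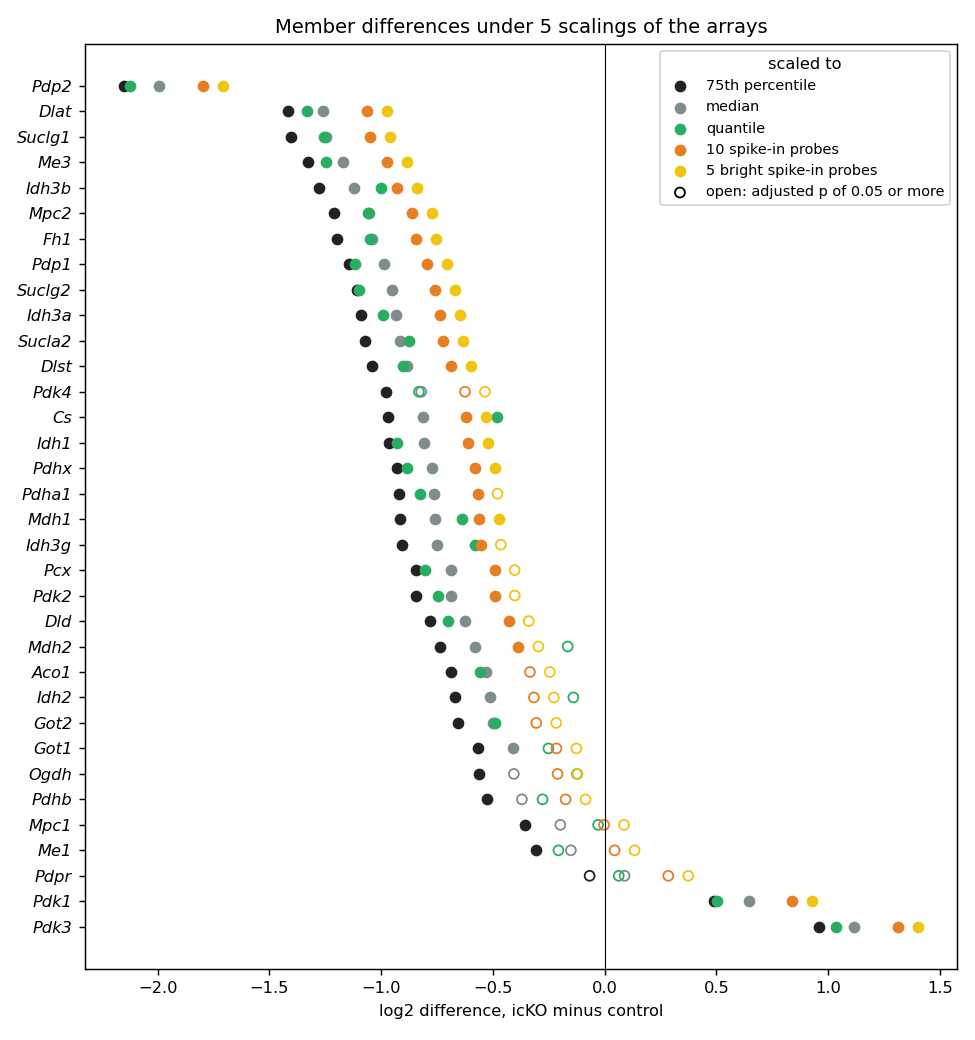
Log2 difference between icKO and control for each of the 34 genes under 5 scalings of the arrays; a filled point passed the threshold and an open one did not. Pdk1 and Pdk3 stay right of 0 and called, Mdh2, Idh2 and Ogdh lie between -0.17 and -0.12 with quantiles, and Mpc1, Me1 and Pdpr cross 0.

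Cell-type markers also differed between the groups. Of 10 cardiomyocyte markers 9 fell, and their mean level ranged from 8.68 to 8.85 in icKO ventricles, against 9.31 to 9.50 in control ventricles; Ryr2 was not called. Of 9 macrophage markers tested 8 rose (mean level 1.78 to 2.30 in icKO, against 0.527 to 1.07 in control). Of 8 fibroblast markers 6 rose (3.88 to 4.24 in icKO, against 2.20 to 2.96 in control). Of 8 endothelial markers 3 fell and 1 rose, and of 7 smooth muscle and pericyte markers 1 fell and 2 rose. Erythrocyte markers were higher for 3 of 4 tested (5.50 to 7.10 in icKO, against 4.42 to 5.02 in control), 1 of 4 epicardial markers rose, and 1 of 2 lymphocyte markers tested fell. None of the 7 adipocyte markers cleared the background filter. The part of these shifts in the falls of the 34 genes was not tested.

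Against the mean of the 10 cardiomyocyte markers on the same array, the mean of the 17 core enzymes was lower in icKO. The log2 ratio was -3.05, -2.97 and -2.98 on the icKO arrays, against -2.73, -2.55 and -2.61 on the control arrays, with no overlap. This difference of -0.37 compares with -0.98 before the ratio was taken. The markers are transcripts too and differed unequally, from -1.03 for Tnni3 to 0.05 for Ryr2. Their mean therefore does not measure the number of cardiomyocytes, and the part of cell numbers was not tested. Of the 34 genes, 26 were lower by this ratio, 17 of them with no overlap, and 11 of those 17 were core enzymes. Another 8 were higher, 4 of them with no overlap. Those 4 were Pdk3 (1.57), Pdk1 (1.1), Me1 (0.30) and Mpc1 (0.25). The share of all features without overlap by this ratio is not given here, so these counts do not set the 34 genes apart. The ratios of the core enzymes Pdhb (0.08) and Ogdh (0.05) overlapped between the groups.

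Among 34 further genes linked to the cycle, 31 were tested, and 24 fell, 2 rose and 5 were not called, against 28.7% of all features called lower and 16% called higher. Their median difference was -0.90. All 7 genes of succinate dehydrogenase and its assembly fell, from -1.09 to -0.42 for Sdhaf1, named after its value was seen, whose sign turned with scaling to the bright spike-in probes (0.02). Ogdhl, a relative of Ogdh, had the largest fall of these genes, with levels of -2.06, -2.60 and -2.09 in icKO ventricles against 0.78, 0.89 and 0.65 in control ventricles. It was at 12.3% of control (-3.03 ± 0.17, adjusted p = 0.000175). The alanine aminotransferases Gpt2 and Gpt, which exchange pyruvate and alanine, fell by 1.61 and 1.54 (adjusted p = 0.00133 and 0.000376).

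The 2 genes that rose are both transporters. Slc16a3, a monocarboxylate carrier known for lactate export, stood at 1.83, 2.28 and 2.27 in icKO, against -0.33, -1.12 and -0.83 in control, a 7.38-fold rise (2.88 ± 0.23, adjusted p = 0.000438). Slc25a1, the mitochondrial citrate carrier, rose 1.86-fold (0.89 ± 0.09, adjusted p = 0.000847). Every icKO array lay above every control array for both.

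The 5 genes that were not called were Ldha, Acly, Me2, Slc25a10 and Slc25a12. Ldha, a lactate dehydrogenase subunit, differed by -0.12 (adjusted p = 0.53), and Acly, which splits citrate in the cytosol, by 0.07 (adjusted p = 0.61). The sign of Ldha turned with median scaling (0.04) and normexp background correction (0.04). It also turned with quantiles (0.38, adjusted p = 0.0654), the authors' value table (0.38, adjusted p = 0.0669), all spike-in probes (0.24) and the bright ones (0.33). Ldha was not called under any of these. Acly rose once arrays were scaled to the spike-in probes (0.42, adjusted p = 0.0318). Me2, the other mitochondrial malic enzyme, differed by -0.47 (adjusted p = 0.0847). It passed the threshold with normexp background correction (-0.35, adjusted p = 0.0415) and without icKO replicate 2 (-0.62, adjusted p = 0.0416). The dicarboxylate carrier Slc25a10 differed by -0.36 (adjusted p = 0.322), and by 0.08 with scaling to the bright spike-in probes (adjusted p = 0.847). The aspartate-glutamate carrier Slc25a12 of the shuttle lay just short of the threshold (-0.38, adjusted p = 0.0522) and passed it with slide row as a block (adjusted p = 0.048). It also passed with eBayes with trend and robust (0.0203), with array weights (0.0297) and without icKO replicate 1 (0.0411). Slc25a12 passed too where all 6 arrays had to be above background (0.0449). The sign of Slc25a12 turned with scaling to the bright spike-in probes (0.07, adjusted p = 0.796).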

How the data were processed

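Total RNA of heart ventricles, labelled with Cy3, was hybridised to 6 single-colour Agilent arrays, 3 icKO and 3 control, per the labels' protocols; the titles call them biological replicates. The deposited scanner files hold spot intensity on a linear scale, background-subtracted within each array by the authors with Agilent Feature Extraction 11.0.1.1, per the file headers, while the submitters' processing notes name version 9.1. The authors' deposited value table also holds uncentred intensity on a linear scale, per its match to the scanner files (correlation of 0.9995 or more with the same array; column medians 18.37 to 18.47). Its normalization was not given in the sources used here.

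Processed signal was taken to log2, and the 75th percentile of the non-control probes on an array was subtracted from it. Spots flagged as outliers were dropped, and replicate spots were averaged. A probe had to be well above background on every array of 1 or both groups, as 45 of 46 were for these genes, and the brightest such probe, by its mean over 6 arrays, represents a gene; the 8 genes with several kept probes had 1 direction in all of them. Probes were named through their RefSeq accessions in a RefSeq gene table. Tests were two-sided, from limma 3.58.1 in R 4.3.3 with lmFit, eBayes and a model with group alone. The steps were tested on simulated data. All 34 genes are named whatever their result, and of the further genes the 3 largest falls, up to 3 largest rises and those not called. Lipt2, Nnt and the marker Cd68 were not analysed here, and Pck2 was too dim. The genes, lists and tests were chosen with earlier results of these data known, so they are not independent evidence.

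All arrays were on 1 slide, so a slide block could not be fitted; the slide row was tried as a block. Deviations of arrays with the same replicate number correlated at -0.05, -0.13 and 0.00, and those with different numbers at -0.04 to 0.09. Deviations within a group of 3 arrays sum to 0 and so depend on each other. They cannot settle whether the numbers pair the mice. Other settings tried were normexp background correction (on median signals, since the files used hold no mean signal column), other scalings, the value table, other filters, averaging a gene's probes, array weights, eBayes with trend and robust, a replicate block and leaving out each array.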

Additional observations from a re-analysis of the deposited data

How the results depend on the processing

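Of the 17 core enzymes, 17 were called lower when any 1 array was left out, 16 with no filter on dim probes, 15 with median scaling, 14 with spike-in scaling and 13 with quantiles or the authors' value table. Of all features, 21.2% to 26.4% were called lower with 1 array left out and 8.19% with no filter on dim probes. That share was 16.4% with median scaling, 10.5% with spike-in scaling, 23.8% with quantiles and 23.6% with the value table. Pdk1 and Pdk3 rose in every setting run. The count of features called was 9972, from 7544 to 9084 with 1 array left out, and 6132 with no filter on dim probes, where more features were tested. With that setting 9 of the 17 other genes were called lower, against 14. With 1 array left out, 28 to 29 of the 34 genes were called lower, 11 to 12 of the other genes, 22 to 24 of the further cycle-linked genes, and the regulators' level relative to the enzymes was 0.397 to 0.529. Scaling to all spike-in probes left 8 of the other genes and 15 of the further genes called lower. Scaling to the bright spike-in probes, chosen after seeing the data, left 16 of the 34 genes, 10 core enzymes, 6 other genes and 12 further genes. With it 7.54% of all features were called lower. In the authors' value table the regulators' relative level was 0.283, against 0.444. Signs turned for Mpc1 (0.0865, bright spike-in), for Me1 (0.0445, spike-in; 0.13, bright spike-in) and for Pdpr, which was never called (0.0892, median; 0.0632, quantile; 0.285, spike-in; 0.0621, value table; 0.37, bright spike-in; -0.39 to 0.13 with 1 array left out). The replicate block called 7878 features, with 22.8% of all features lower and 12.6% higher. It called 29 of the 34 genes lower and 2 higher. Only the calls for Mpc1 (adjusted p = 0.0839) and Me1 (adjusted p = 0.0805) were lost. Whether the replicate numbers pair the mice is not known. Over the 34 genes and 20 other settings, 599 values kept direction and call, 68 lost the call and 12 turned sign; Pdpr had no value where all 6 arrays had to be above background. Causes of these changes were not tested beyond the settings' own construction.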

Other observations

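Lactate dehydrogenase and other enzymes at the edge of the cycle also differed, in genes chosen after their values were seen. Ldhb, the subunit typical of heart, stood at 7.61, 7.61 and 7.70 in icKO ventricles, against 9.13, 9.0 and 8.99 in control ventricles, or 37.9% of control (-1.40 ± 0.09, limma adjusted p = 0.00026). Ldha, the subunit typical of glycolytic muscle, was at 8.36, 8.39 and 8.78 in icKO and at 8.72, 8.52 and 8.64 in control, with overlap. The sign of its difference turned with the other scalings, as given above. Whether the 2 differences differ from each other was not tested. Crat, which moves acetyl groups between CoA and carnitine, fell by 1.03 (adjusted p = 0.00382), and Slc25a11, the 2-oxoglutarate carrier of the malate-aspartate shuttle, by 1.0 (adjusted p = 0.000553). Glud1, glutamate dehydrogenase, fell by only 0.35 (adjusted p = 0.0229). Scaled to the median it was not called (-0.19, adjusted p = 0.29), and its sign turned with scaling to all or the bright spike-in probes (0.0046 and 0.09).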
